A study of Caenorhabditis elegans with 82 samples.

Results

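The comparison described here is that of wild-type worms raised on MYb71 with worms raised on OP50, both taken as adults on day 1 (Ad1, 72 h). Its members are the libraries whose labels give the treatment MYb71 or OP50 and the time point of 72 h, 4 on MYb71 and 3 on OP50, so 7 of the 82 libraries of the series. MYb71 is an Ochrobactrum isolate from the native gut microbiota of Caenorhabditis elegans, and OP50 is the Escherichia coli strain on which the worm is kept in the laboratory. In the whole study, worms of the strain N2 were kept on OP50, on MYb71, on a second isolate or on a mixture. They were sampled from the second larval stage to day 7 of adulthood. The labels call the second isolate MYb65, while the study's text names Ochrobactrum MYb237, and no source used here states that these are the same. All groups used here are N2 hermaphrodites at 20 °C, with no mutation or transgene. The labels name the plates mNGM, while the study's methods describe plates without peptone. Each library is polyadenylated RNA of a pool of whole worms, picked by hand from their offspring. The methods describe 3 replicates, as separate runs of the exposure, while the labels give 4 libraries on MYb71, and all 4 were used. In such bulk samples fewer cells of a type and less RNA per cell cannot be told apart.

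Bacteria are both food and gut inhabitants for C. elegans, and they differ in the vitamins they supply. Vitamin B12 is a cofactor of 2 reactions in the worm, of which 1 clears propionate through methylmalonyl-CoA and the other makes methionine from homocysteine. When B12 is scarce, the worm breaks propionate down through a shunt that needs no B12, and the shunt gene acdh-1 is widely used as a reporter of the B12 in the diet. The gut epithelium that meets the bacteria also makes digestive proteases, lipases, detoxification enzymes and secreted antimicrobial proteins.

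Total counts ran from 15134039 to 21903567 in the MYb71 libraries and from 16472130 to 62431452 in the OP50 libraries. OP50 replicate 3 stood apart from the other OP50 libraries. Across genes, its log2 CPM (CPM is the count of a gene scaled to the size of its library) correlated with those of the 4 MYb71 libraries at r = 0.945 to 0.971, and with those of OP50 replicates 1 and 2 at 0.922 and 0.927. OP50 replicates 1 and 2 correlated with each other at 0.975. The markers of several tissues differed in this library too. The summed level of 14 moulting and larval cuticle markers was 346 to 951 CPM in the MYb71 libraries, against 227, 320.3 and 1807 CPM in OP50 replicates 1, 2 and 3. That of 156 cuticle collagens was 3870 to 9763 CPM on MYb71, against 15846, 22632 and 3776 CPM on OP50. The 14 germline and oocyte markers summed to 6522 to 11850 CPM on MYb71, and to 10313, 13400 and 6236 CPM on OP50. Of the collagens, 6 were at 0 in all MYb71 libraries and 8 in all OP50 libraries, and no member of the other marker lists was. Their part in the results was not tested. Test results against OP50 are therefore given with and without OP50 replicate 3 for most of the genes described here.

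With all 7 libraries kept, the MYb71 and OP50 worms differed in no gene at the adjusted threshold of the main fit. That fit held 11 libraries, as the 4 MYb65 libraries of Ad1 were included in it. Of 15226 genes tested, 0 passed an adjusted p of 0.05 in edgeR's quasi-likelihood test (0% in either direction, smallest adjusted p = 0.148). At an unadjusted p under 0.05, 326 genes were higher (2.14%) and 295 lower (1.94%) on MYb71, 621 in all (4.08%). That is below the share of 0.05 that such a threshold marks among unchanged genes. In edgeR on the 7 libraries alone, 3 genes passed as higher and 1 as lower of 14691. With DESeq2 on the 11 libraries, 67 genes passed as higher and 60 as lower. For single genes, passing refers below to edgeR unless DESeq2 is named. DESeq2 on all libraries called 47 of the 81 genes listed for this comparison. Some of these did not pass in edgeR with or without OP50 replicate 3, such as folt-2, sams-1 and elo-6 (DESeq2 adjusted p = 0.00811, 0.0148 and 0.0395). Without OP50 replicate 3, edgeR called 85 genes higher (0.536%) and 82 lower (0.517%) of 15850, 167 in all (1.05%). All 85 and 81 of the 82 had a log2 fold change of at least 1 in size. A model of the 21 MYb71 and OP50 libraries of L4, Ad1 and Ad3, in which all 7 libraries of Ad1 were kept, called 25 genes higher (0.152%) and 17 lower (0.103%) at Ad1 of 16455. The separation of single libraries gives a further view that needs no model. The 4 MYb71 libraries lay above the 3 OP50 libraries in 395 genes (2.59%) and below them in 353 (2.32%), 748 in all (4.91%). Of the 35 ways to split 7 libraries into 4 and 3, 1 puts all MYb71 libraries above OP50, a share of 0.0286. The same share holds for below. The shares found were no larger than these, so a lack of overlap alone does not mark a gene as changed.

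The level of OP50 replicate 3 is given as a description for the genes that passed without it. In the main edgeR fit those genes were called only once it was set aside, so its position in them is not independent of that choice. DESeq2 on all libraries called 73 of the 167. Leaving out OP50 replicate 1 or 2 in its place gave 0 genes. OP50 replicate 3 could be placed for the 158 of the 167 that were also tested with all libraries. On a log2 CPM scale where 0 is the mean of the MYb71 libraries and 1 the mean of OP50 replicates 1 and 2, its median position was 0.0951, with quartiles of -0.0901 and 0.296. It lay nearer to MYb71 in 139 genes (88.0%) and nearer to the other OP50 libraries in 19. In 93 genes (58.9%) it lay within the range of the MYb71 libraries or past their mean. The genes that were higher and lower on MYb71 were alike in this, with median positions of 0.122 and 0.0725.

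**Figure D1:**
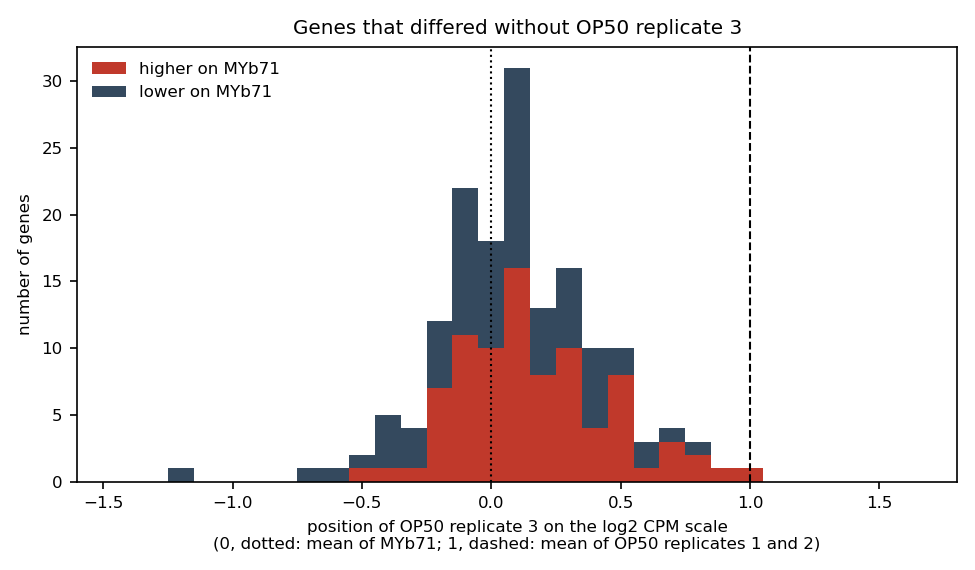
Histogram of the position of OP50 replicate 3 for the 158 genes that differed without it, with the number of genes on the vertical axis and the position on the log2 CPM scale on the horizontal one (0, mean of MYb71; 1, mean of OP50 replicates 1 and 2). Most genes lie around 0, with a median of 0.0951, and 19 lie at 0.5 or above.

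Few genes separated MYb71 from OP50 in every library by a wide margin, and a metallothionein led those that were lower. The level of mtl-2 (chromosome V, 14018270 to 14018673, minus strand, WBcel235), which encodes a metal-binding metallothionein made in the intestine, was 1.53, 0.406, 1.59 and 1.01 CPM on MYb71, against 66.4, 40.4 and 23.1 CPM on OP50. No MYb71 library came near an OP50 library. The log2 fold change was -5.23 (SE 0.74, adjusted p = 0.148), and it was -5.53 without OP50 replicate 3 (adjusted p = 0.0110). F44E7.5 (V, 5778817 to 5780922, minus strand), a protein-coding gene that overlaps noncoding genes on the other strand and a microRNA gene on its own, had 170.4, 239, 177 and 298 CPM on MYb71 and 31.4, 35.9 and 30.6 CPM on OP50. Its OP50 libraries were within 1 narrow range, replicate 3 included. The log2 fold change was 2.76 (SE 0.42, adjusted p = 0.148), and 2.72 without OP50 replicate 3 (adjusted p = 0.0391). R08F11.4 (V, 3803839 to 3805527) had 10.1, 8.88, 10.59 and 10.4 CPM on MYb71, against 0.790, 0.872 and 0.984 CPM on OP50. Both groups were tight, and the log2 fold change was 3.50 (SE 0.56, adjusted p = 0.162), and 3.59 without OP50 replicate 3 (adjusted p = 0.0367).

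The smallest unadjusted p of the comparison, 1.25e-05, belonged to K04A8.20, a gene named here after its values were seen, since its mean level is below the minimum of the naming rule. This short protein-coding gene (V, 6549448 to 6549792, plus strand) had 16.1, 25.5, 17.6 and 21.7 CPM on MYb71, against 0.269, 0.0485 and 0.362 CPM on OP50. It was close to silent in every OP50 library. Its log2 fold change was 6.42 (SE 0.87, adjusted p = 0.148), and 6.73 without OP50 replicate 3 (adjusted p = 0.0197). In a fit of the 7 libraries alone, 4 genes passed, namely K04A8.20, F44E7.5 and R08F11.4, which rose, and mtl-2, which fell (adjusted p = 0.00967, 0.00851, 0.00851 and 0.0246). With the replicate numbers as a block, the fit of the 7 libraries called 0 genes (smallest adjusted p = 0.199), so all 4 calls were lost there. The same 4 genes passed in the model of 21 libraries, which has no such block, with adjusted p of 2.07e-04, 1.41e-05, 4.07e-05 and 1.41e-05.

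Further genes of this kind were found among those highest on MYb71. F40F8.5 (II, 11132852 to 11134928) stood at 294, 523, 317 and 666 CPM on MYb71, against 55.6, 48.9 and 88.996 CPM on OP50, a log2 fold change of 2.80 (SE 0.50, adjusted p = 0.256), and 3.10 without OP50 replicate 3 (adjusted p = 0.0388). M02H5.8 (V, 449981 to 450437) stood at 52.4, 83.9, 73.4 and 105 CPM on MYb71 and at 11.3, 13.7 and 20.5 CPM on OP50, with 2.38 (SE 0.39, adjusted p = 0.162), and 2.65 without OP50 replicate 3 (adjusted p = 0.0247). In both, OP50 replicate 3 was the highest of the OP50 libraries and still well under MYb71. F56C3.9 (X, 1391800 to 1393991) stood at 14.5, 19.6, 14.1 and 39.2 CPM on MYb71, against 2.51, 0.824 and 0.466 CPM on OP50, with a log2 fold change of 4.04 (SE 0.81, adjusted p = 0.290). Here the value without OP50 replicate 3, 3.66, did not pass (adjusted p = 0.116), although it passed in the model of 21 libraries (4.10, adjusted p = 0.0110). Its log2 fold change was the largest increase among genes of a mean log2 CPM of at least 2. Of genes below that level, nspg-7.2 had 4.70 (SE 1.04, adjusted p = 0.300), from 5.25, 16.4, 7.34 and 7.54 CPM on MYb71 and 0.0673, 0.0485 and 1.04 CPM on OP50. Without OP50 replicate 3, whose level was the highest of OP50, it was 7.11 (adjusted p = 0.0116).

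All 5 genes of the propionate shunt were lower on MYb71, and in 4 of them OP50 replicate 3 was as low as, or close to, the MYb71 worms. The 5 had an unadjusted p under 0.05, against 1.94% of all genes lower on MYb71, and 2 of them did not overlap, against 2.32%. Their median log2 fold change was -2.15, beside -0.08 for all genes tested. The gene acdh-1 (I, 6497436 to 6499560), the acyl-CoA dehydrogenase of the first step, had 0.124, 7.60, 0.397 and 0 CPM on MYb71, against 1219, 1338 and 11.2 CPM on OP50. OP50 replicate 3 was far below the other OP50 libraries and just above the highest MYb71 library. This gave a log2 fold change of -8.75 (SE 1.87, adjusted p = 0.290), or of -9.33 without OP50 replicate 3 (adjusted p = 0.0251). The hydroxypropionate transhydrogenase gene hphd-1 (II, 12994354 to 12996571) had 40.05, 87.1, 32.1 and 31.5 CPM on MYb71 and 513, 695 and 40.6 CPM on OP50. OP50 replicate 3 thus lay inside the range of MYb71, and the log2 fold change of -3.13 (SE 0.74, adjusted p = 0.353) became -3.66 without it (adjusted p = 0.00687).

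The enzymes of the middle of the shunt behaved likewise. The hydratase gene ech-6 had 95.8, 123, 105 and 112 CPM on MYb71, against 531, 588 and 95.1 CPM on OP50. The hydrolase gene hach-1 had 74.2, 92.3, 71.4 and 102 CPM on MYb71, against 492, 572 and 65.5 CPM on OP50. In both, OP50 replicate 3 was the lowest of all 7 libraries. With all libraries the log2 fold changes were -1.89 (SE 0.49, adjusted p = 0.404) and -2.15 (SE 0.55, adjusted p = 0.390). Without OP50 replicate 3 both fell, by 2.36 (adjusted p = 0.00540) and by 2.65 (adjusted p = 0.00195) on the log2 scale. The exception was alh-8, the aldehyde dehydrogenase of the last step, with 319, 572, 372 and 393 CPM on MYb71 and 647, 1228 and 705 CPM on OP50. Its OP50 libraries all lay above MYb71, replicate 3 among them, and the log2 fold change was -1.06 (SE 0.32, adjusted p = 0.576), and -1.18 without OP50 replicate 3 (adjusted p = 0.192).

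The genes of the B12-dependent route, which is the pathway the shunt replaces, were close to level. Of its 6 genes, 0 had an unadjusted p under 0.05, and their log2 fold changes ran from -0.46 to 0.09. The lowest, mmaa-1, which handles the cofactor for the methylmalonyl-CoA mutase, had 82.0, 90.4, 70.8 and 101 CPM on MYb71, against 140.3, 141 and 73.4 CPM on OP50. Its log2 fold change was -0.46 (SE 0.24, adjusted p = 0.963). It too had its low OP50 value in replicate 3, and -0.71 without that library did not pass (adjusted p = 0.150).

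Of the 3 nuclear hormone receptor genes of the B12 response, nhr-114 and nhr-68 were lower on MYb71 and nhr-10 was not. The receptor gene nhr-114 (V, 4187202 to 4190008), which acts on the methionine cycle and overlaps a gene on the other strand, had 7.44, 12.1, 12.7 and 5.53 CPM on MYb71, against 85.9, 217.8 and 12.4 CPM on OP50. It gave a log2 fold change of -3.47 (SE 0.69, adjusted p = 0.290), and -4.001 without OP50 replicate 3 (adjusted p = 0.00153). The receptor gene nhr-68, which switches on the shunt, had 14.8, 18.4, 10.8 and 8.91 CPM on MYb71 and 44.2, 51.5 and 20.3 CPM on OP50. No library overlapped, and -1.55 (SE 0.34, adjusted p = 0.290) became -1.85 without OP50 replicate 3 (adjusted p = 0.0145). Its partner nhr-10 had 29.2 to 34.6 CPM on MYb71 and 32.4 to 39.3 CPM on OP50, a log2 fold change of -0.15 (SE 0.15, adjusted p = 0.963).

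Around methionine, 7 of 16 genes were lower and 0 higher at an unadjusted p under 0.05 (1.94% and 2.14% of all genes), 1 lay below OP50 in every library (2.32% of all genes), and the median was -0.65. The methionine sulfoxide reductase gene msra-1 (II, 7363220 to 7364040, overlapping insc-1 on the other strand) had 21.9, 22.002, 28.6 and 20.8 CPM on MYb71, against 291, 174 and 23.4 CPM on OP50, so that OP50 replicate 3 lay among the MYb71 libraries. This was a log2 fold change of -2.80 (SE 0.59, adjusted p = 0.290), and -3.31 without that library (adjusted p = 8.69e-04). The methionine synthase gene metr-1, the other B12-dependent enzyme, had 143, 163, 141.9 and 199 CPM on MYb71 and 482, 404 and 176 CPM on OP50, with -1.13 (SE 0.32, adjusted p = 0.506), and -1.45 without OP50 replicate 3 (adjusted p = 0.0251). For folt-2, a member of the folate transporter family, the values were 1.78, 17.5, 2.66 and 2.01 CPM on MYb71, against 557, 674 and 2.07 CPM on OP50. With all libraries its log2 fold change was -6.11 (SE 1.66, adjusted p = 0.456). The wide gap of OP50 replicates 1 and 2 did not pass without replicate 3 either (-6.69, adjusted p = 0.0532), with MYb71 replicate 2 above its fellows. The S-adenosylmethionine synthetase gene sams-1 kept all OP50 libraries above MYb71, with 88.2, 86.5, 121 and 53.6 CPM on MYb71 and 166, 349 and 173 CPM on OP50. Its log2 fold change was -1.39 (SE 0.31, adjusted p = 0.303), and -1.56 without OP50 replicate 3 (adjusted p = 0.0617).

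In transsulfuration, the route of homocysteine to cysteine, the genes for successive steps had changes of opposite sign. The gene cth-1 (V, 16100680 to 16102750), a cystathionine gamma-lyase, had 8.51, 7.95, 10.2 and 6.32 CPM on MYb71, against 27.9, 122 and 19.1 CPM on OP50, with -2.77 (SE 0.53, adjusted p = 0.290), and -3.19 without OP50 replicate 3 (adjusted p = 0.00984). The gene cbs-1, the cystathionine beta-synthase of the step before it, had 83.1, 62.7, 82.4 and 70.4 CPM on MYb71, against 33.3, 30.9 and 59.7 CPM on OP50. It was higher on MYb71 by 0.86 (SE 0.25, adjusted p = 0.529), and it rose by 1.22 without OP50 replicate 3 (adjusted p = 0.0247). Both genes kept the groups apart, while 5 other members of the 7 overlapped (2.59% of all genes lay above and 2.32% below OP50 in every library).

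Beside cth-1, 1143 bp further on the same strand, lies the arginine kinase gene argk-1 (V, 16103894 to 16105952), whose product buffers ATP. It had 0.165, 0.348, 0.873 and 0.216 CPM on MYb71, against 8.34, 85.0 and 2.49 CPM on OP50. The groups were apart, but the OP50 libraries were spread more widely than for cth-1. Its log2 fold change was -6.25 (SE 1.11, adjusted p = 0.256), and -6.80 without OP50 replicate 3 (adjusted p = 0.00818). The peroxisomal ABC transporter gene pmp-5 (V, 6662191 to 6665813) had 3.39, 5.22, 5.79 and 2.80 CPM on MYb71 and 130.4, 141.5 and 5.33 CPM on OP50. Of the 5 peroxisomal transporters tested it was the 1 that passed without OP50 replicate 3, falling by 4.97 (adjusted p = 8.69e-04), beside -4.42 with all libraries (SE 0.83, adjusted p = 0.290). The gene rips-1 (V, 3772021 to 3774609), which overlaps cysl-3 on the other strand, had 2.73, 5.46, 2.66 and 1.44 CPM on MYb71, against 61.5, 62.5 and 3.88 CPM on OP50, with -3.79 (SE 0.75, adjusted p = 0.290), and -4.33 without OP50 replicate 3 (adjusted p = 0.00133). Its overlapping neighbour cysl-3 differed less, with -0.65 (SE 0.26, adjusted p = 0.963), and -0.92 without OP50 replicate 3 (adjusted p = 0.0695). As the strand was not marked in these libraries, reads from such a pair cannot be told apart where the genes overlap.

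**Figure D2:**
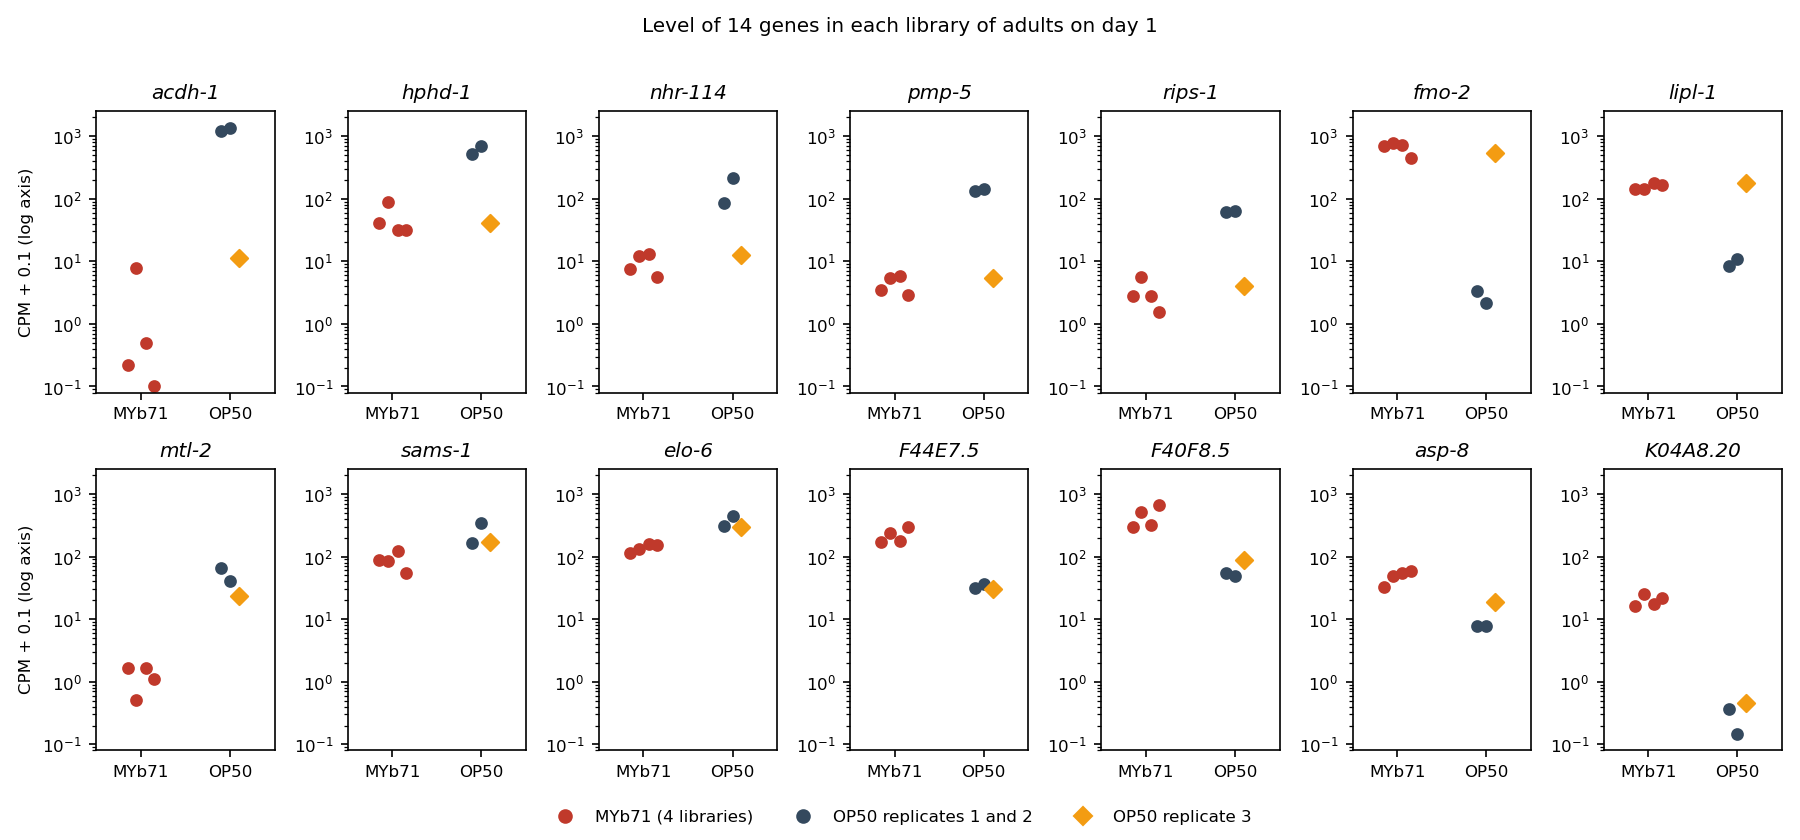
CPM plus 0.1 on a log axis for 14 genes, with each point 1 library, MYb71 on the left and OP50 on the right of each panel, and OP50 replicate 3 drawn as a diamond. In the upper row OP50 replicate 3 lies with the MYb71 libraries or close to them (acdh-1 at 11.2 CPM, fmo-2 at 531 CPM). In the lower row it lies nearer to the other OP50 libraries (mtl-2 at 23.1 CPM, F44E7.5 at 30.6 CPM). For asp-8 it is about midway between them and MYb71 (18.4 CPM, position 0.529).

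The genes of metal handling were divided. Of 16 tested, mtl-2 included, 2 were higher and 2 lower at an unadjusted p under 0.05 (2.14% and 1.94% of all genes). Of the 16, 3 lay above and 1 below OP50 in every library (2.59% and 2.32% of all genes). The second metallothionein gene, mtl-1, overlapped between the groups, with a log2 fold change of -2.64, and -0.88 without OP50 replicate 3 (adjusted p = 0.580). The largest increases of the list were those of genes for ZIP family zinc transporters. The gene zipt-2.3, which overlaps kqt-3 on the other strand, had 9.22, 21.4, 11.03 and 34.2 CPM on MYb71, against 3.35, 4.07 and 2.74 CPM on OP50, with 2.48 (SE 0.74, adjusted p = 0.569). The gene zipt-2.1 had 44.5, 56.2, 41.7 and 67.2 CPM on MYb71, against 24.4, 22.4 and 18.4 CPM on OP50, with 1.27 (SE 0.31, adjusted p = 0.353). OP50 replicate 3 was the lowest OP50 library in both, and neither passed without it (adjusted p = 0.320 and 0.201), whereas both passed in the model of 21 libraries (adjusted p = 0.0281 and 0.0437).

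In lipid metabolism, the genes of fatty acid synthesis and desaturation with low p-values were lower on MYb71. Of 20 genes of synthesis and desaturation, 7 were lower and 0 higher at an unadjusted p under 0.05 (1.94% and 2.14% of all genes), and 6 lay below OP50 in every library (2.32% of all genes), with a median of -0.45. The palmitoyl-CoA desaturase gene fat-5 (V, 17725004 to 17726818, overlapping genes on the other strand) had 5.83, 3.95, 8.21 and 1.72 CPM on MYb71, against 38.5, 108 and 17.03 CPM on OP50, with -3.45 (SE 0.67, adjusted p = 0.290), and -3.88 without OP50 replicate 3 (adjusted p = 0.0216). The elongase genes elo-5 and elo-6, whose products make branched-chain fatty acids, lie 9511 bp apart on chromosome IV. For elo-5 the levels were 48.3, 65.9, 57.5 and 43.2 CPM on MYb71 and 126, 172 and 119.5 CPM on OP50, and for elo-6 115, 132, 157 and 152.01 CPM on MYb71 and 307, 439 and 299 CPM on OP50. The 3 OP50 libraries agreed in both. The log2 fold changes of -1.37 (SE 0.40) and -1.32 (SE 0.34) did not pass (adjusted p = 0.515 and 0.390), nor did those without OP50 replicate 3 (-1.47 and -1.42, adjusted p = 0.212 and 0.140).

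Of 20 genes of fatty acid beta-oxidation, 10 had a positive and 10 a negative log2 fold change. Of them, 5 were higher and 1 lower at an unadjusted p under 0.05 (2.14% and 1.94% of all genes), and 5 lay above and 0 below OP50 in every library (2.59% and 2.32% of all genes). The median of the list was -0.04, a sign that turned with another scaling of the libraries (0.03). The acyl-CoA oxidase gene acox-3 had 109, 82.4, 141.5 and 127 CPM on MYb71, against 42.7, 55.9 and 54.9 CPM on OP50, with 1.17 (SE 0.32, adjusted p = 0.456), and 1.22 without OP50 replicate 3 (adjusted p = 0.217). The peroxisomal hydratase gene maoc-1 was higher by 0.64 (SE 0.21, adjusted p = 0.685), and by 0.52 without it (adjusted p = 0.340). The gene that was lower was kat-1, a thiolase, with 128, 169, 135 and 154 CPM on MYb71 and 350.3, 422 and 136 CPM on OP50. With all libraries kat-1 had -1.05 (SE 0.34, adjusted p = 0.680). OP50 replicate 3 lay with MYb71 there, and without it kat-1 passed, with -1.3998 (adjusted p = 0.0283). Without that library 1 of the 20 genes rose and 1 fell (0.536% and 0.517% of all genes). The gene that rose was ech-9, by 3.96 (adjusted p = 0.00195).

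Lysosomal lipase-like genes release fatty acids from stored lipid. Of 7 tested, 4 had a positive and 3 a negative log2 fold change, from -1.35 for lipl-3 to 3.36 for lipl-4, and 1 was higher and 0 lower at an unadjusted p under 0.05 (2.14% and 1.94% of all genes). The gene lipl-4 had 6.41, 7.72, 7.18 and 8.62 CPM on MYb71, against 0.353, 0.533 and 1.35 CPM on OP50, with 3.36 (SE 0.78, adjusted p = 0.317), and 4.09 without OP50 replicate 3 (adjusted p = 0.0789). It lies 378 bp downstream of K04A8.20 on the same strand. The related lipl-1 had 145, 143, 179 and 167 CPM on MYb71 and 8.26, 10.8 and 178 CPM on OP50, and lipl-2 had 121, 88.2, 119.2 and 111 CPM on MYb71 and 6.19, 2.13 and 76.002 CPM on OP50. In these, OP50 replicate 3 was as high as MYb71 or nearly so. Their log2 fold changes were 1.28 (SE 0.84, adjusted p = 0.963) and 1.97 (SE 0.99, adjusted p = 0.963) with all libraries. Without OP50 replicate 3 both rose, by 4.06 (adjusted p = 3.56e-04, the smallest of that fit) and by 4.68 (adjusted p = 0.0247).

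The flavin-containing monooxygenase gene fmo-2 (IV, 10682524 to 10684367), induced by several stresses and by fasting, was split widely among the OP50 libraries. It had 689, 775, 711 and 451 CPM on MYb71, against 3.21, 2.04 and 531 CPM on OP50. The log2 fold change was 1.88 (SE 1.73, adjusted p = 0.963). Without OP50 replicate 3 it was 7.94 and did not pass in the main form of that fit (SE 1.93, adjusted p = 0.112). Of 25 alternatives in all, 2 called fmo-2. The family member fmo-1 had 64.02, 66.6, 84.7 and 72.3 CPM on MYb71, against 12.3, 8.67 and 58.0 CPM on OP50. It too was high in OP50 replicate 3. Its log2 fold change was 1.45 (SE 0.72, adjusted p = 0.963), and 2.77 without that library did not pass (adjusted p = 0.116).

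Of the vitellogenin genes, which encode yolk proteins made in the intestine, vit-2 differed less than its spread, with 29106 ± 9142 CPM on MYb71 (SD, n = 4) and 23293 ± 7638 CPM on OP50 (SD, n = 3). The minor gene vit-1 had 215, 638, 306 and 894 CPM on MYb71, against 3012, 4824 and 94.3 CPM on OP50. Of the 6 vitellogenins tested it was the 1 with an unadjusted p under 0.05, and -2.37 (SE 1.054, adjusted p = 0.963) became -2.93 without OP50 replicate 3 (adjusted p = 0.181). The vitellogenins share much of their sequence, which makes the levels of single members uncertain.

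Among detoxification families, the cytochrome P450s had more members higher than lower on MYb71. Of 62 tested, 18 were higher and 4 lower at an unadjusted p under 0.05 (2.14% and 1.94% of all genes), and 12 lay above OP50 in every library and 0 below (2.59% and 2.32%), with a median of 0.35. Of these genes, 1 rose and 1 fell without OP50 replicate 3 (0.536% and 0.517% of all genes). The gene cyp-34A7 had 7.81, 2.15, 6.47 and 7.11 CPM on MYb71, against 1.21, 1.02 and 0.725 CPM on OP50. Its log2 fold change was 2.56 (SE 0.51, adjusted p = 0.290) and 2.39 without OP50 replicate 3 (adjusted p = 0.104), and it rose by 2.61 in the model of 21 libraries (adjusted p = 0.0110). The genes cyp-33E3 and cyp-33C7 were higher by 1.75 (SE 0.47) and 1.45 (SE 0.39), both with an adjusted p of 0.448, and by 1.98 and 1.82 without OP50 replicate 3 (adjusted p = 0.146 and 0.0874). Close relatives among these enzymes can share reads, which makes single members uncertain.

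Of 40 glutathione S-transferase genes, 5 were higher and 1 lower at an unadjusted p under 0.05 (2.14% and 1.94% of all genes). Of the 40, 4 lay above and 3 below OP50 in every library (2.59% and 2.32% of all genes), and the median was 0.34. None of them passed without OP50 replicate 3 (0 of 40). The gene gst-6 had 28.9, 19.04, 41.4 and 29.1 CPM on MYb71, against 12.2, 9.26 and 13.05 CPM on OP50, with 1.37 (SE 0.29, adjusted p = 0.290), and 1.46 without OP50 replicate 3 (adjusted p = 0.0811). In the model of 21 libraries it rose by 1.397 (adjusted p = 0.0470). The gene gst-29 was higher by 1.57 (SE 0.41, adjusted p = 0.404), and by 1.41 without OP50 replicate 3 (adjusted p = 0.236). UDP-glucuronosyltransferases were divided, with 4 of 59 higher and 8 lower at an unadjusted p under 0.05 (2.14% and 1.94% of all genes). Of the 59, 7 lay above and 2 below OP50 in every library (2.59% and 2.32% of all genes), and the number below was near the share over all genes. Of these, ugt-31 had 11.41, 32.4, 15.95 and 10.8 CPM on MYb71 and 5.20, 6.45 and 5.798 CPM on OP50, with 1.60 (SE 0.49, adjusted p = 0.590), and 1.60 without OP50 replicate 3 (adjusted p = 0.300). In contrast, ugt-17 had a log2 fold change of -1.29 (SE 0.39, adjusted p = 0.576), and it fell by 1.68 without OP50 replicate 3 (adjusted p = 0.0145). Without that library ugt-18 rose, by 4.68 (adjusted p = 0.0184).

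Genes for secreted and digestive proteins of the gut gave values in both directions. Of 12 aspartic protease genes, 2 were higher and 2 lower at an unadjusted p under 0.05 (2.14% and 1.94% of all genes), and 4 lay above OP50 in every library and 0 below (2.59% and 2.32%). The gene asp-8 (V, 3024549 to 3027931) had 33.1, 49.2, 55.4 and 59.8 CPM on MYb71, against 7.80, 7.80 and 18.4 CPM on OP50, with 2.13 (SE 0.33, adjusted p = 0.148), and 2.66 without OP50 replicate 3 (adjusted p = 0.00133). The neighbours asp-12 and asp-5 were higher by 1.43 (SE 0.65, adjusted p = 0.963) and 0.82 (SE 0.30, adjusted p = 0.917), with no overlap between the groups, and by 1.32 and 0.78 without OP50 replicate 3 (adjusted p = 0.392 and 0.349). In contrast, asp-13 had 32.03, 48.1, 32.9 and 40.1 CPM on MYb71, against 177, 169 and 21.3 CPM on OP50. With all libraries its log2 fold change was -1.68 (SE 0.56, adjusted p = 0.726). OP50 replicate 3 was the lowest of the 7, and without it asp-13 fell by 2.18 (adjusted p = 0.0122).

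Cysteine proteases of the cathepsin type were likewise split. The cathepsin B-like gene cpr-3 (V, 15296834 to 15298700) had 38.1, 65.3, 60.7 and 47.2 CPM on MYb71, against 11.9, 11.2 and 23.5 CPM on OP50, with 1.77 (SE 0.32, adjusted p = 0.279), and 2.19 without OP50 replicate 3 (adjusted p = 0.0101). The cathepsin Z-like gene cpz-1 had 291, 302, 298 and 284 CPM on MYb71, against 600.2, 570.4 and 329 CPM on OP50. Its MYb71 libraries were nearly equal, and -0.77 (SE 0.22, adjusted p = 0.515) became -0.997 without OP50 replicate 3 (adjusted p = 0.0290).

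Among immune effector families most members did not separate. Of 131 C-type lectin genes tested, 9 were higher and 4 lower at an unadjusted p under 0.05 (2.14% and 1.94% of all genes), and 7 lay above and 3 below OP50 in every library (2.59% and 2.32% of all genes). The number below was thus near the share over all genes. The lectin gene clec-48 had 6.49, 14.2, 8.09 and 8.91 CPM on MYb71, against 45.8, 56.9 and 14.8 CPM on OP50, with -2.06 (SE 0.40, adjusted p = 0.290), and -2.45 without OP50 replicate 3 (adjusted p = 0.00452). Its relative clec-47 had 3.76, 14.5, 4.09 and 3.88 CPM on MYb71 and 95.9, 54.6 and 10.9 CPM on OP50, with -3.04 (SE 0.70, adjusted p = 0.317), and -3.52 without OP50 replicate 3 (adjusted p = 0.0246). In contrast, clec-54 was higher, with 16.6, 12.9, 19.05 and 15.1 CPM on MYb71, against 3.73, 4.56 and 6.73 CPM on OP50. Its log2 fold change was 1.67 (SE 0.35, adjusted p = 0.290), and 1.94 without OP50 replicate 3 (adjusted p = 0.0435). The abundant clec-63 overlapped between the groups, with 0.47 (SE 0.39, adjusted p = 0.963), and 1.03 without OP50 replicate 3 (adjusted p = 0.268).

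The lysozyme and saposin-like genes, whose products attack bacterial walls and membranes, had 2 of 13 and 3 of 23 members higher and 0 lower at an unadjusted p under 0.05 (2.14% and 1.94% of all genes). The lysozyme gene lys-5 had 14.8, 9.87, 18.4 and 16.2 CPM on MYb71, against 2.56, 2.91 and 12.63 CPM on OP50, with 1.303 (SE 0.57, adjusted p = 0.963). Without OP50 replicate 3, which lay within the MYb71 range, it rose by 2.44 (adjusted p = 0.0331). Its neighbour lys-4 had 379.7, 329, 603 and 558 CPM on MYb71 and 298, 319.6 and 221 CPM on OP50, with 0.74 (SE 0.33, adjusted p = 0.963), and 0.60 without OP50 replicate 3 (adjusted p = 0.394). For spp-3 the levels were 106, 132, 146 and 165 CPM on MYb71 and 64.6, 62.4 and 100.5 CPM on OP50, and for spp-5 309.6, 546, 516 and 537 CPM on MYb71 and 276, 228 and 379 CPM on OP50. The values of spp-3 did not overlap, by a small margin, and those of spp-5 did. The log2 fold changes were 0.86 (SE 0.35) and 0.70 (SE 0.32), and neither passed with or without OP50 replicate 3 (adjusted p = 0.963 and 0.963, and 0.281 and 0.311 without it). For spp-1, a pore-forming member, 1.104 (SE 0.40, adjusted p = 0.899) became 1.73 without OP50 replicate 3 (adjusted p = 0.0598). Of the 23 saposin-like genes, 3 rose and 0 fell without that library (0.536% and 0.517% of all genes). These were spp-2 by 3.71, spp-18 by 1.91 and spp-8 by 2.12 (adjusted p = 0.0255, 0.00930 and 0.0271).

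Of 15 genes that respond to infection in other settings, 1 was higher and 4 were lower at an unadjusted p under 0.05 (2.14% and 1.94% of all genes). The infection response gene irg-8 (V, 415870 to 417706) had 6.1996, 8.36, 7.94 and 4.81 CPM on MYb71, against 101, 168 and 5.44 CPM on OP50, where replicate 3 lay within the MYb71 range, with -3.74 (SE 1.00, adjusted p = 0.448), and -4.30 without OP50 replicate 3 (adjusted p = 0.0379). The adjoining dod-19, 1110 bp away on the same strand, had 11.1, 27.98, 18.7 and 11.3 CPM on MYb71 and 51.6, 102 and 28.5 CPM on OP50. Its groups did not overlap, and its log2 fold change was -1.82 (SE 0.49, adjusted p = 0.448), and -2.16 without OP50 replicate 3 (adjusted p = 0.0743). A second pair of neighbours lies at 13734309 to 13738474 on chromosome V. There F35E12.6 had 6.70, 8.36, 6.11 and 4.60 CPM on MYb71, against 25.2, 41.05 and 9.84 CPM on OP50, with -1.98 (SE 0.40, adjusted p = 0.290), and -2.36 without OP50 replicate 3 (adjusted p = 0.00540). The adjacent irg-5 was low in all worms, at 0.413, 0.0581, 0.119 and 0.144 CPM on MYb71 and 2.98, 3.44 and 0.104 CPM on OP50. Its log2 fold change was -3.49 (SE 1.03, adjusted p = 0.541), and it fell by 4.05 without OP50 replicate 3 (adjusted p = 0.0450).

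The intestine itself was well represented in all libraries. None of the 12 intestine markers was at 0 in either group, and their summed level was 2361 to 3639 CPM on MYb71 and 1781 to 2831 CPM on OP50, ranges that overlap. Their log2 fold changes were divided, with 7 positive and 5 negative and a median of 0.13 (6091 and 9135 of all genes, median -0.08). The lowest of the 12 was mtl-2 (-5.23), described above. The gut transcription factor gene elt-2 had 9.42, 13.4, 11.3 and 6.47 CPM on MYb71, against 7.82, 12.5996 and 11.1 CPM on OP50, with -0.05 (SE 0.31, adjusted p = 0.988), a sign that turned under several alternatives. The gut esterase gene ges-1 had 40.5, 42.5, 44.2 and 38.1 CPM on MYb71, against 23.4, 24.6 and 20.1 CPM on OP50. Its groups were narrow and apart, but 0.86 (SE 0.25, adjusted p = 0.503) did not pass, nor did 0.78 without OP50 replicate 3 (adjusted p = 0.281). For ifb-2, an intermediate filament gene of the gut, the value was 0.75 (SE 0.26, adjusted p = 0.769), and 0.86 without OP50 replicate 3 (adjusted p = 0.267).

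Of the other tissues, the sperm markers were higher on MYb71 in 33 of 33 tested, with a median of 1.07, yet none separated the groups. The summed level of all 35 was 59.04 to 610 CPM on MYb71 and 22.1 to 208 CPM on OP50. The ribosomal protein genes were lower in 77 of 77, with a median of -0.33, and none of them separated the groups either. Of all 15226 genes, 6091 were higher and 9135 lower, with a median of -0.08. Over all genes, 2.59% lay above and 2.32% below OP50 in every library, so 0 in lists of this size is near those shares. Members of such lists move together from library to library. In exact two-sided permutation tests of the log2 sums over the 35 arrangements of 4 and 3 libraries, the smallest p over 13 lists was 0.114, for the intestine markers (adjusted p = 0.669, smallest p the design allows 0.0286). The adult cuticle collagen gene col-19 had 52.0, 321, 78.8 and 58.5 CPM on MYb71 and 448, 869 and 62.8 CPM on OP50.

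Proteins of the same age had been measured in separate worms, and the genes of proteins listed as higher or lower on MYb71 were examined in RNA. Of 43 genes of proteins higher on MYb71, 11 were higher and 0 lower at an unadjusted p under 0.05 (2.14% and 1.94% of all genes). Of the 43, 7 lay above OP50 in every library and 0 below (2.59% and 2.32% of all genes), and the median log2 fold change was 0.52. They included F40F8.5, M02H5.8 and cbs-1, described above, and F42A10.6, with 42.2, 53.9, 57.4 and 76.9 CPM on MYb71 and 25.4, 27.8 and 18.9 CPM on OP50. The last was higher by 1.26 (SE 0.27, adjusted p = 0.290), and by 1.11 without OP50 replicate 3 (adjusted p = 0.146). Of 71 genes of proteins lower on MYb71, 39 were lower and 2 higher at an unadjusted p under 0.05 (1.94% and 2.14% of all genes). Of the 71, 17 lay below OP50 in every library and 1 above (2.32% and 2.59% of all genes), and the median was -0.78. Without OP50 replicate 3, 25 of the 71 fell and 1 rose, and 4 of the 43 rose and 0 fell, where 0.517% of all genes passed as lower and 0.536% as higher. Among the 25 was semo-1, a methanethiol oxidase gene, with 15.5, 17.2, 14.4 and 13.002 CPM on MYb71, against 74.0, 40.4 and 22.4 CPM on OP50, and a fall by 1.93 (adjusted p = 0.0110). The gene that rose was lys-5, whose protein was in the list of lower ones. Of the genes the study put in its core response to MYb71, 63 were tested, with 51 lower and 7 higher at an unadjusted p under 0.05 (1.94% and 2.14% of all genes). That list was chosen on these libraries among others and is not independent evidence of its direction.

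**Figure D3:**
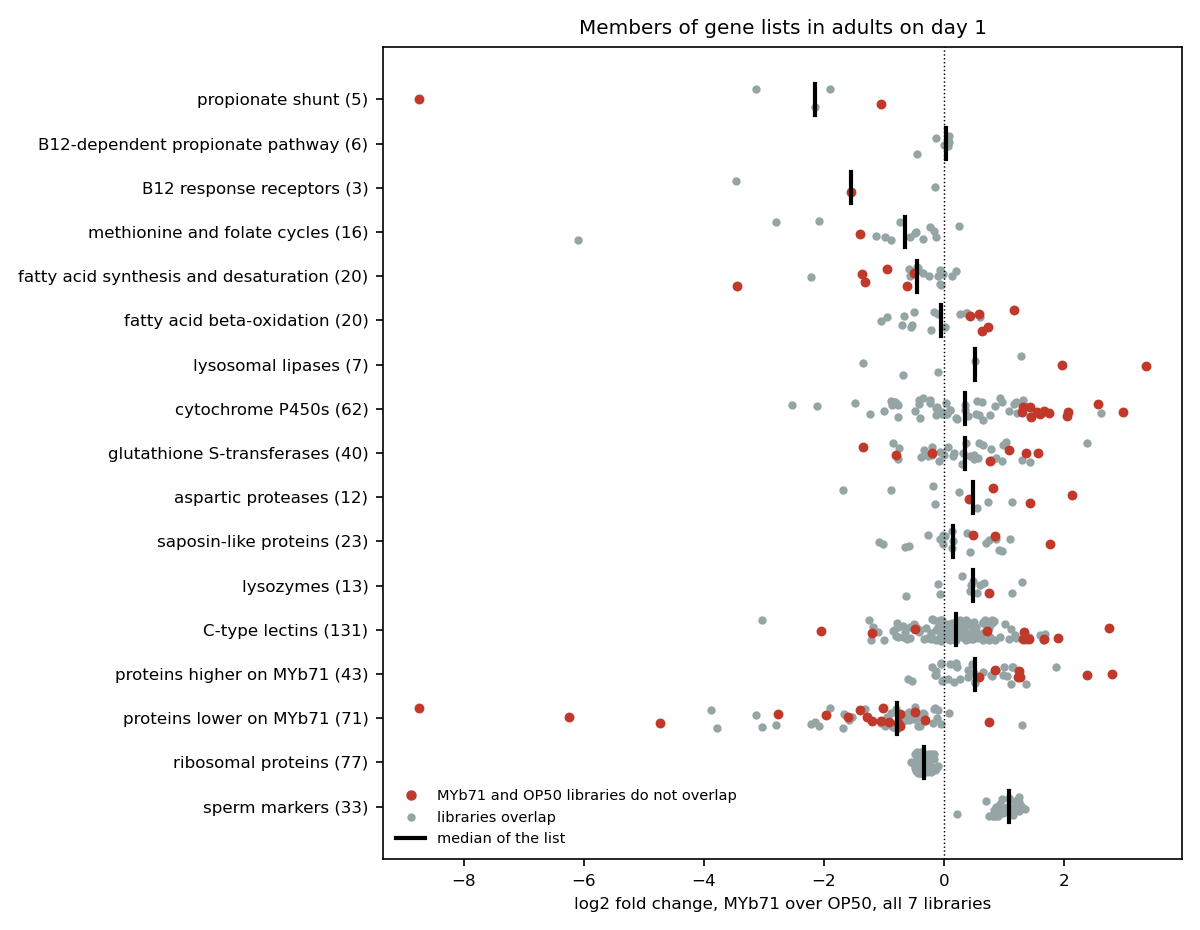
Log2 fold change of MYb71 over OP50 with all 7 libraries (horizontal axis) for the tested members of 17 lists (rows, number of members in brackets), with each point 1 gene, red where the groups do not overlap, and a black bar at the median. The propionate shunt lies furthest to the left (median -2.15), the B12-dependent route lies near 0, and the sperm markers lie near 1 without a single red point.

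The positions of the called genes on the chromosomes were uneven. Of the 158 genes placed without OP50 replicate 3, 69 (43.7%) lie on chromosome V, which holds 19.8% of the genes tested. Chromosome III held 6 (3.8%), beside 15.4% of the genes tested. Of the 9 neighbouring pairs among the genes named, 6 are on chromosome V (cth-1 with argk-1, K04A8.20 with lipl-4, irg-8 with dod-19, F35E12.6 with irg-5, asp-12 with asp-5 and rips-1 with cysl-3), 2 on IV (elo-5 with elo-6 and lys-4 with lys-5) and 1 on X (spp-3 with spp-5). Within each pair the sign of the log2 fold change was shared. The shares are a description, with no test.

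The second isolate at the same age, MYb65, was compared with MYb71 in the same model. Of 15226 genes, 0 were higher and 2 lower on MYb71 (0% and 0.0131%), with 197 (1.29%) at an unadjusted p under 0.05, and 0 higher and 3 lower with DESeq2. Both genes are pseudogenes without a symbol, next to each other on chromosome V. WBGene00014954 (16928328 to 16928999) averaged 5.32 ± 0.974 CPM on MYb71 and 29.3 ± 10.4 CPM on MYb65 (SD, n = 4 each), with -2.46 (adjusted p = 0.0360). WBGene00014955 (16929167 to 16930063) averaged 10.1 ± 0.863 CPM on MYb71 and 47.6 ± 17.4 CPM on MYb65, with -2.24 (adjusted p = 0.0360). The OP50 worms stood between, at 13.96 ± 3.93 and 24.3 ± 5.65 CPM (SD, n = 3). The count of lower genes was 0 on leaving out any 1 of 8 of the 11 libraries, namely each of the 4 of MYb71, MYb65 replicates 2 and 3 and OP50 replicates 1 and 2.

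For the genes that led the comparison with OP50, the changes on both isolates are given side by side. They share the OP50 libraries, and beyond the 2 pseudogenes 0 genes passed between the isolates. On MYb71 and MYb65, the log2 fold changes were -8.75 and -9.94 for acdh-1, -5.23 and -3.43 for mtl-2, 2.76 and 2.46 for F44E7.5, 2.80 and 2.76 for F40F8.5 and 2.13 and 2.45 for asp-8. The values lay further apart for the elongase genes, with -1.37 and 0.13 for elo-5 and -1.32 and -0.03 for elo-6. The level of elo-6 was 139 ± 19.4 CPM on MYb71 (SD, n = 4) and 339.9 ± 156 CPM on MYb65 (SD, n = 4), and the libraries did not overlap, by a small margin. For fmo-2 the MYb65 libraries had 58.2, 1.76, 2.88 and 123 CPM, all below the 451 CPM of the lowest MYb71 library. None of these differences between isolates passed (adjusted p = 0.947 or above).

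The change on MYb71 at Ad1 was then compared with that at the last larval stage (L4) and on day 3 of adulthood (Ad3), each with its own OP50 libraries. Against L4, 0 genes differed in their change among 16455 (0% in either direction, smallest adjusted p = 0.1004), with 759 at an unadjusted p under 0.05, and 3 with DESeq2. Against Ad3, 2 genes had a higher change at Ad1 (0.0122%) and 1 a lower one (0.00608%), with 277 at an unadjusted p under 0.05, and with DESeq2 4 and 1. The 3 genes were F44E7.5, R08F11.4 and mtl-2, which were among those with the smallest p at Ad1. With the replicate numbers of each stage as a block, 0 genes passed against Ad3 in edgeR (smallest adjusted p = 0.0994).

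At Ad3 the difference between the diets was smaller in each of the 3 genes. For mtl-2, the log2 fold changes were -5.86 at L4, -5.17 at Ad1 and -1.16 at Ad3, and the change at Ad1 minus that at Ad3 was -4.01 (SE 0.62, adjusted p = 0.0198). Its level on MYb71 was 0.640 ± 0.269 CPM at L4, 1.099 ± 0.544 CPM at Ad1 and 14.4 ± 3.11 CPM at Ad3 (SD, n = 4 each), and on OP50 it was 37.4 ± 10.7, 40.2 ± 18.9 and 31.99 ± 13.9 CPM (SD, n = 3 each). It was thus the MYb71 worms in which mtl-2 was higher on day 3. For F44E7.5, the log2 fold changes were 2.85 at L4, 2.80 at Ad1 and 0.30 at Ad3, with a difference of 2.4998 between Ad1 and Ad3 (SE 0.32, adjusted p = 0.00293). For R08F11.4, they were 0.72 at L4, 3.54 at Ad1 and -0.24 at Ad3, with a difference of 3.78 between Ad1 and Ad3 (SE 0.48, adjusted p = 0.00293). The difference of R08F11.4 between Ad1 and L4, 2.82, did not pass (SE 0.45, adjusted p = 0.1004).

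On leaving out 1 library, the count of genes with a lower change than at Ad3 was 0 in 8 of 21 cases, and that of genes with a higher change was 2 in 20 cases and 4 without OP50 replicate 3 of Ad1. The 8 libraries were MYb71 replicate 4 at Ad1, MYb71 replicates 3 and 4 and each OP50 replicate at Ad3, and OP50 replicates 1 and 2 at Ad1. Other leading genes had like values without passing, with 3.13 at L4, 2.81 at Ad1 and 0.78 at Ad3 for F40F8.5 and 4.12, 6.45 and 1.55 for K04A8.20. The reverse order held for asp-8, with 1.17 at L4, 2.13 at Ad1 and 2.94 at Ad3, where the difference between Ad1 and Ad3 was -0.81 (SE 0.50, adjusted p = 1.00). The low acdh-1 of OP50 replicate 3 was found at all 3 stages. In the model of these stages, OP50 replicates 1, 2 and 3 had 1638, 1974 and 268 CPM of acdh-1 at L4, 1116, 1202 and 11.5 CPM at Ad1 and 585, 514 and 12.9 CPM at Ad3. For fmo-2, replicates 1, 2 and 3 had 0.706, 1.39 and 2.28 CPM at L4, 2.94, 1.83 and 542 CPM at Ad1 and 1.51, 6.49 and 40.6 CPM at Ad3, so that replicate 3 was the highest at each stage.

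**Figure D4:**
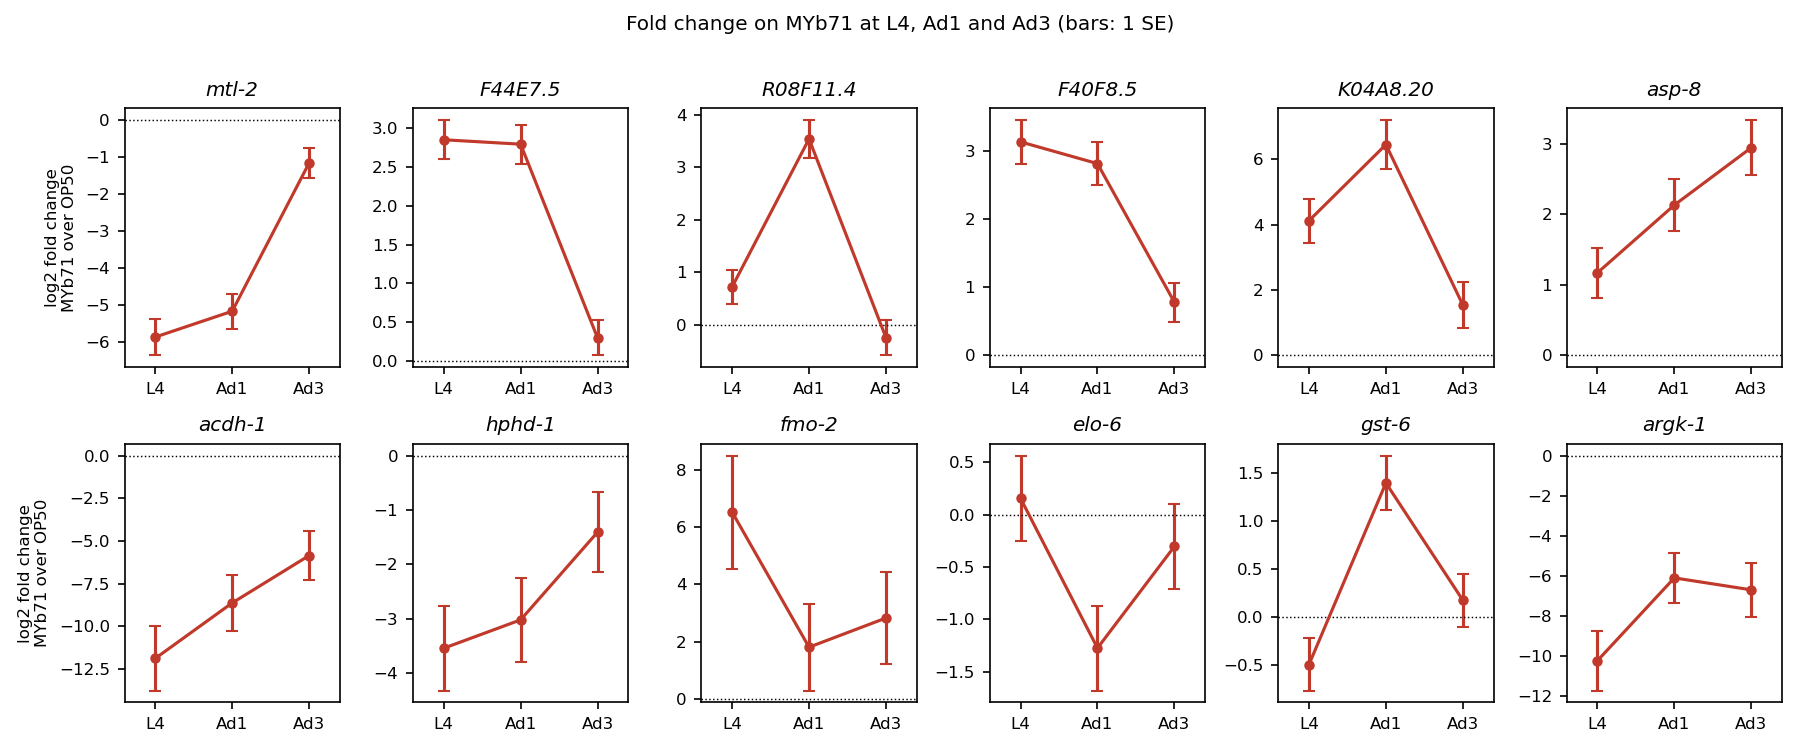
Log2 fold change of MYb71 over OP50 at L4, Ad1 and Ad3 (horizontal axis) for 12 genes, with bars of 1 SE and a dotted line at 0. The changes of mtl-2 and F44E7.5 are alike at L4 and Ad1 (-5.86 and -5.17, 2.85 and 2.80) and small at Ad3 (-1.16 and 0.30), and R08F11.4 is far from 0 at Ad1 alone (3.54).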

How the data were processed

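The authors trimmed reads with Trimmomatic, used STAR 2.5.3a for mapping to WormBase WS235, and obtained gene counts with HTSeq. The deposited values are raw counts of 46748 genes from an unstranded library kit, and the sources used here do not give how reads with several matches were counted. Gene symbols (43693 matched) and coordinates are those of WBcel235, Ensembl release 115.

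Counts of the 11 Ad1 libraries on OP50, MYb71 and MYb65 were fitted in edgeR 4.0.16 (R 4.3.3) with TMM scaling, filterByExpr (minimum count 10, minimum total 15), robust quasi-likelihood tests and Benjamini-Hochberg adjustment at 0.05, with no minimum fold. Stage differences came from a model of 21 libraries. DESeq2 1.42.0, other scalings, filters, library sets, a replicate block and each library left out were alternatives. CPM is scaled by TMM, and log2 CPM used a prior count of 2. The SE of a log2 fold change is its size divided by the square root of the F statistic of the quasi-likelihood test. Same-numbered MYb71 and OP50 libraries at Ad1 deviated together from their group means (r = 0.321, 0.391 and 0.293). As every r was at least 0.1, the numbers were taken to pair them, and the methods describe replicates as separate runs. With them as a block, 0 genes passed in the 11 libraries and in the 7 alone. The log2 fold changes, SEs and adjusted p given per gene come from fits without this block, unless the block is named. No library pair agreed within sampling noise (lowest chi-square per gene 39.2). The procedure was tested on simulated counts.

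The rule named genes called at adjusted p of 0.05, the 10 highest and 10 lowest with no overlap, unadjusted p under 0.05 and a mean log2 CPM of at least 2, from every list the 3 genes of smallest p, those the study's text names, those called in the other comparisons, all members of the propionate, B12, transsulfuration, vitellogenin and flavin monooxygenase lists and a few known from earlier results. Of these, the text describes those its results turn on. The members of the comparison, the gene lists and the rule were chosen with earlier results of these data known. Separation without a model is given as groups that do not overlap.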

Additional observations from a re-analysis of the deposited data

Results flagged for a closer look

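In 5 of the 81 genes listed for this comparison, 1 of the 4 MYb71 libraries lay far from the other 3 on the log2 CPM scale, and chance alone marks about 1 gene in 20. MYb71 replicate 2 was low for cyp-34A7 (2.15 CPM), gst-44 (6.39 CPM) and E02C12.6 (3.08 CPM) and high for clec-47 (14.5 CPM), and MYb71 replicate 1 was low for spp-5 (310 CPM).

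For 3 genes the change on MYb71 differed between Ad1 and Ad3 by the test of that difference, with a change at Ad1 minus that at Ad3 of -4.01 for mtl-2, 2.5 for F44E7.5 and 3.78 for R08F11.4. For 2 pseudogenes the isolates differed, with a log2 fold change of MYb71 over MYb65 of -2.46 for WBGene00014954 and -2.24 for WBGene00014955.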

How the results depend on the processing

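The counts of the comparison with OP50 turned on OP50 replicate 3. With 1 library left out they ranged from 0 to 85 higher and from 0 to 82 lower, and the upper ends were reached without OP50 replicate 3. Without MYb65 replicate 1 and without MYb65 replicate 3 they were 1 and 2 higher. DESeq2 gave 67 higher and 60 lower, and the 7 libraries alone 3 and 1, which the replicate block took to 0 and 0. Scaling by size factors, both filters, no robust estimates, all 14 libraries of Ad1 and the replicate block on 11 libraries gave 0 and 0. Of alternatives chosen after seeing the data, DESeq2 without OP50 replicate 3 gave 502 higher and 199 lower, the 6 remaining libraries alone 727 and 338, the fit without it with the replicate block 74 and 74, that with no filter 87 and 87, and the model of 21 libraries 25 and 17. Of the 167 genes called without that library, DESeq2 on all libraries called 73 (43.7% of the 167 and 57.5% of its 127), and the fit with the block called 116.

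The 2 genes lower than on MYb65 were 0 with the replicate block and 0 to 2 with 1 library left out. There, r of same-numbered libraries was 0.778, 0.378, 0.501 and -0.374. Numbers were taken as pairs only where every r was at least 0.1, so not here. Against L4, DESeq2 gave 3 genes with a higher change, and leaving out 1 library gave 0 to 2. Against Ad3, DESeq2 gave 4 higher, the replicate block 0 higher and 0 lower, and leaving out 1 library 2 to 4 higher and 0 to 1 lower, while without OP50 replicate 3 at all 3 stages there were 6 higher and 7 lower. For MYb71 and OP50, r was 0.505, 0.743 and 0.0669 at L4 and -0.167, -0.0989 and -0.251 at Ad3. By the same rule the numbers were not taken as pairs at either stage, though 2 of the values at L4 were high.

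Of 81 genes, 80 kept the sign of their log2 fold change under up to 25 alternatives. That of elt-2, -0.05, became 0.022 with the stricter filter, 0.0079 with the 7 libraries alone, 0.20 with these and the block, 0.065, 0.11 and 0.045 without OP50 replicate 3 with DESeq2, the 6 libraries and the block, and -0.23 to 0.19 with 1 library left out, among them 0.01 without MYb65 replicate 2, 0.01 without MYb65 replicate 3, 0.19 without MYb71 replicate 4 and 0.07 without OP50 replicate 2. The cause of these shifts was not tested. With 4 against 3 libraries, p-values measure only the spread between these runs, and genes under about 1 CPM rest on few reads.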
